A study of Pseudozyma hubeiensis with 12 samples.

Results

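Nitrogen starvation on glucose was compared with exponential growth on glucose in BOT-O, a strain of Pseudozyma hubeiensis. This basidiomycete yeast is known for mannosylerythritol lipids, surfactants made of sugar and fatty acids that it releases into the medium. The comparison takes 6 of the 12 libraries of the series, chosen by their labels, and all 6689 loci of the deposited table. Cultures grew in yeast nitrogen base with glucose or xylose and ammonium sulfate, and C/N was 80 (g/g) at the start. The exponential group (time point 1) and the starved group (time point 2) each hold biological replicates A, B and C. The other 6 libraries are the same phases on xylose and serve here as the reference for what differs on glucose. All groups share the strain, the base medium and the starting carbon-to-nitrogen ratio, and they differ in sugar and phase. Phase and time point coincide, so a change with starvation cannot be told apart from a change with culture age. No measurement of the nitrogen left in the medium was used here.

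Fungal cells short of nitrogen are known to lower TOR signalling and with it the synthesis of ribosomes. They also lift the repression of genes for poorer nitrogen sources such as purines, allantoin, peptides and amino acids, and they recycle protein and RNA in the vacuole. When sugar remains, oleaginous and smut-related yeasts keep taking up carbon and put it into storage lipid or secreted glycolipids. The lists below follow these processes. They overlap in places and are searches over deposited gene names and products.

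Levels are CPM, the usual library-scaled counts, here scaled by library total and TMM factor, and 3 values in a row are replicates A, B and C. Changes are log2 fold changes of starved over exponential ± SE. "Rose" and "fell" mean an adjusted p under 0.05 in edgeR's quasi-likelihood test with Benjamini-Hochberg adjustment over 5805 tested genes. The largest adjusted p among the genes named below as having risen or fallen on glucose was 0.0292. CPM are not divided by transcript length, so changes are read between libraries and not between genes. Where loci are called most abundant, the ranking is by CPM and also reflects transcript length. In RNA from whole cultures, fewer cells of a kind and less RNA per cell cannot be told apart, and each level is a share of the library. Names with a suffix such as _2 are loci that share a deposited name. They are called copies here, and duplication of a gene was not tested. Their reads may be shared, and their separate levels are uncertain.

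The exponential glucose libraries held 28371027, 32374467 and 19428306 counts and the starved ones 15130232, 16894818 and 16670212. Spearman correlation across tested genes was 0.996 to 0.997 between exponential replicates and 0.979 to 0.987 between starved replicates. Chi-square per degree of freedom between glucose replicates was 11.4 to 94.9, so all 6 libraries differed by more than counting error. Starved glucose libraries were less even for weak genes. At a mean of 10 to 100 counts the median coefficient of variation was 47.5%, against 21.0% in exponential glucose and 25.4% in starved xylose. A starved glucose library had 21 to 39 loci without a count although the other 2 averaged at least 10 counts. That number was 0 or 1 in an exponential glucose library and 1 to 4 in a starved xylose library. The starved replicates also differed in distance from starved xylose. Over 4844 genes with at least 20 CPM in starved glucose, the median absolute log2 difference from the starved xylose mean was 0.308 for A, 0.263 for B and 0.209 for C.

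Starvation changed most of the transcriptome on glucose, in nearly equal numbers of genes up and down. Of 5805 tested genes, 4714 changed (81.2%), of which 2327 rose (40.1%) and 2387 fell (41.1%). Changes of 2-fold or more were called in 1305 genes that rose (22.5%) and 1282 that fell (22.1%). Past 8-fold the balance differed, with 292 genes up (5.03%) and 145 down (2.5%). The starved and exponential libraries did not overlap in 4729 genes (81.5%). The median log2 change over all tested genes was -0.02, with quartiles at -0.90 and 0.89, and every list median below is to be read against these values.

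Of the 292 loci that rose 8-fold or more, 58 started under 1 CPM, and of the 145 that fell that far, 34 ended there. From under 1 CPM in exponential growth to at least 100 CPM in starvation went 22 loci, and no locus went the other way. Among the 22 were the ADP/ATP carrier copy pet9_2, the oligopeptide transporter opt1_2, the polyamine transporter copy tpo3_3 and the mannosyltransferase emt1. Of the loci that rose 8-fold or more, 32.2% were hypothetical or uncharacterized, against 14.5% of those that fell that far and 21.7% of all tested loci. The 10 most abundant loci summed to 6.72 to 6.8% of the exponential libraries and 10.9 to 11.9% of the starved ones. Only 21 loci were among the 100 most abundant in both groups.

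**Figure D1:**
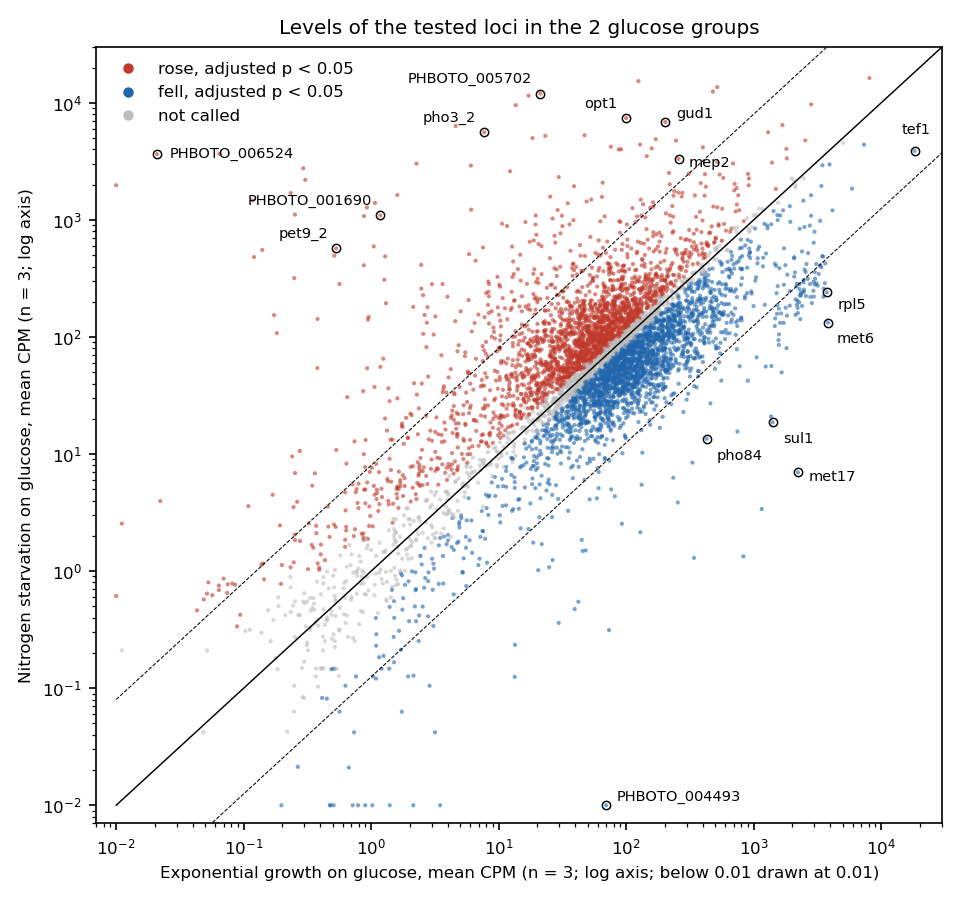
Mean level of each tested locus in exponential growth (x axis, CPM, log scale) and nitrogen starvation (y axis, CPM, log scale) on glucose, n = 3 libraries each; the solid line marks equal levels, dashed lines mark 8-fold changes and circles mark genes named in the text. Loci that rose (red, 2327) reach further from the equal line than loci that fell (blue, 2387), and some of those furthest above it start under 1 CPM; means below 0.01 CPM are drawn at 0.01.

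The share of a library's counts held by each process shifted with these changes. Cytosolic ribosomal protein genes held 19.2 to 20% of the counts in the exponential libraries and 2.15 to 2.32% in the starved ones. Translation factors went from 4.23 to 4.4% to 1.1 to 1.14%. In the other direction, purine and pyrimidine breakdown went from 0.216 to 0.222% up to 4.14 to 5.04%, and amino acid and peptide transporters from 0.543 to 0.553% to 2.2 to 2.35%. Glycolysis and gluconeogenesis held 2.22 to 2.25% and then 2.07 to 2.2%. The ranges of the exponential and starved libraries did not overlap for any of these lists, though those of glycolysis and gluconeogenesis lay close.

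**Figure D2:**
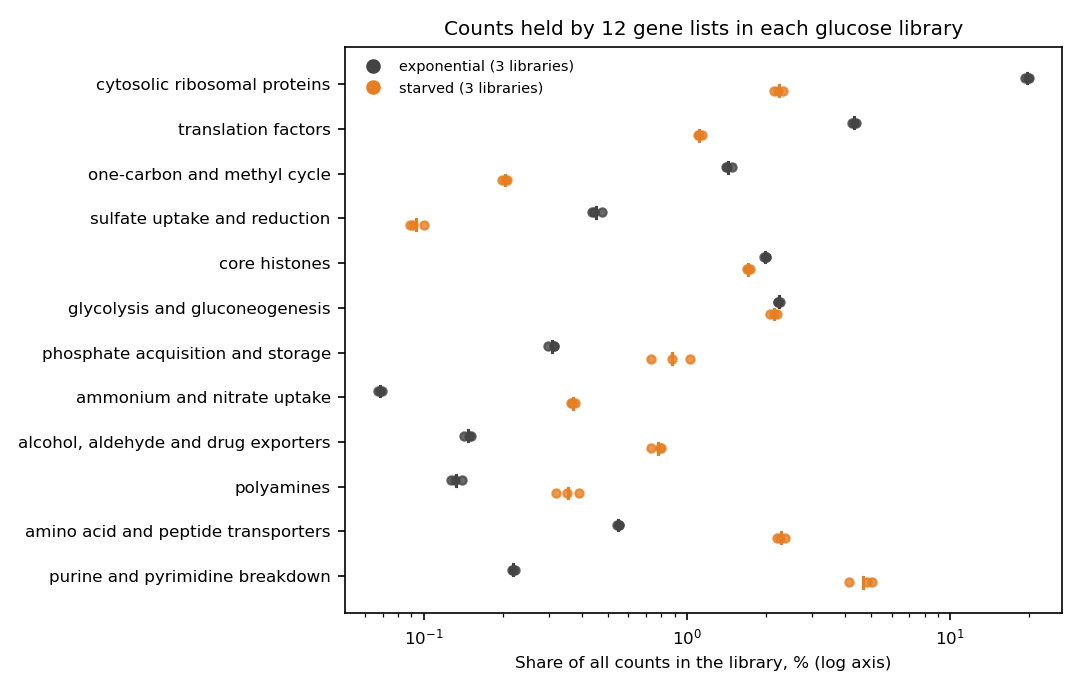
Share of all counts in each library (x axis, %, log scale) held by 12 gene lists; each dot is 1 glucose library, dark for exponential growth and orange for starvation, and the tick is the mean of 3. Cytosolic ribosomal proteins go from 19.2 to 20% of the counts to 2.15 to 2.32%, and purine and pyrimidine breakdown rises to 4.14 to 5.04%.

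Uptake of ammonium split by transporter. The high-affinity ammonium transporter mep2, which in baker's yeast also acts as an ammonium sensor, stood at 239, 263 and 270.0 CPM in exponential growth and at 3270, 3335 and 3355 CPM in starvation. All 3 starved libraries were far above the exponential ones, a rise of 3.69 ± 0.09. The related mep3 went from 219, 213 and 226 to 106, 107 and 119 CPM and fell by 0.99 ± 0.08. Of the low-affinity transporters, amf1 rose by 1.44 ± 0.17 and amf1_2 by 0.53 ± 0.09, while the ammonia exporter ato2 fell by 0.41 ± 0.10. The list therefore had 3 risers and 2 fallers among 5 genes.

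Genes that take up purines and strip nitrogen from them rose by some of the widest margins on glucose. Of 24 tested genes of purine and pyrimidine breakdown, 19 rose and 4 fell, with a median of 2.38. Of 7 genes for the steps on the purine ring, 6 rose (median 3.95). The guanine deaminase gud1, which turns guanine into xanthine, went from 214, 205 and 189.9 to 5574, 7903 and 7106 CPM, a rise of 5.08 ± 0.14. The adenine deaminase aah1 rose by 3.95 ± 0.12, the purine nucleoside phosphorylase pnp1 by 3.52 ± 0.15 and the xanthine dehydrogenase PHBOTO_003220, which makes urate, by 4.69 ± 0.17. After the urate oxidase step (PHBOTO_000156, 6.94 ± 0.16), the allantoicase dal2 rose by 1.84 ± 0.18. The one ring gene that fell was the adenine deaminase copy aah1_2, by 0.59 ± 0.11.

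Uptake at the membrane moved with these enzymes but not in every copy. The purine permease PHBOTO_000775 stood at 6.59, 5.82 and 5.75 CPM in exponential growth and 2434, 3209 and 3090 CPM in starvation, a rise of 8.91 ± 0.18. The purine transporter PHBOTO_001733, which the list does not hold and which was taken as one of the 10 most abundant loci of starvation, went from 539, 523 and 492 to 11551, 14596 and 14767 CPM (a rise of 4.72 ± 0.15). The uracil permease fur4 rose by 7.39 ± 0.15 and the allantoin permease dal4 by 5.15 ± 0.09. Of 4 allantoate permease copies 3 rose, dal5_3 by 10.40 ± 0.20, dal5 by 3.9 ± 0.09 and dal5_2 by 0.71 ± 0.27, and dal5_4 fell by 2.39 ± 0.09, from 619, 549 and 643 to 107, 120.5 and 117 CPM. The call for dal5_2 was lost without exponential A or starved B, with adjusted p = 0.114 and 0.139 in edgeR's quasi-likelihood test. It was also lost with the 6 glucose libraries alone (adjusted p = 0.079 in the same test) and in limma voom with group weights (adjusted p = 0.0739). Of the urea transporters, dur3 rose by 0.84 ± 0.17, dur3_3 had a change of 0.01 ± 0.09 that was not called, and dur3_2 was weak, at 1.8, 1.5 and 3.46 CPM and then 0.0639, 0.363 and 0.693 CPM, and fell by 2.49 ± 0.58, a call that limma voom with group weights did not make (adjusted p = 0.122).

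A nuclease gene rose as well. The guanyl-specific ribonuclease PHBOTO_001690, of a family that cuts RNA after guanine, stood at 1.1, 1.32 and 1.12 CPM and then at 661, 1002 and 1617 CPM. The rise was 9.84 ± 0.33 in log2, and every starved library was far above every exponential one, with starved C the highest.

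Transporters of amino acids and peptides rose more often than they fell, and the extremes lay in both directions. Of 41 tested genes, 27 rose and 7 fell (median 0.85). The oligopeptide transporter opt1 went from 92.9, 106 and 101 to 7665, 7253 and 7312 CPM, a rise of 6.21 ± 0.14 with little spread among starved libraries. Of its 5 other tested copies, opt1_2 and opt1_6 rose by 12.85 ± 0.28 and 0.62 ± 0.08, and opt1_5 fell by 0.49 ± 0.13. The peptide transporter ptr2 rose by 5.8 ± 0.12, the GABA permease uga4 by 6.25 ± 0.13 and the general amino acid permease gap1 by 2.19 ± 0.11. The amino acid transporter PHBOTO_003010 was near silence at 0.366, 0.647 and 0.682 CPM and reached 234, 309 and 307 CPM. Among fallers, the lysine permease lyp1 went from 259, 282 and 303 to 24.7, 20.3 and 23.5 CPM and fell by 3.62 ± 0.15. Of 5 acidic amino acid permease copies 3 rose: dip5_4 by 3.91 ± 0.09, dip5_5 by 1.71 ± 0.11 and dip5 by 1.1 ± 0.10, the last from 771, 767 and 732 to 1771, 1472 and 1621 CPM. Copy dip5_3 fell by 8.42 ± 0.49 and dip5_2 by 1.76 ± 0.19. For dip5_3 the starved replicates were uneven, at 3.32, 0.302 and 6.55 CPM.

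Nutrient signalling genes changed by less, and not in one direction. Of 31 tested genes 13 rose and 12 fell (median 0.04). The kinase rim15, which in baker's yeast directs entry into quiescence, went from 86.1, 82 and 77.9 to 532, 470.4 and 668 CPM and rose by 2.76 ± 0.17. The nitrogen repressor copy ure2_3 rose by 2.42 ± 0.10 and ure2_2 by 1.24 ± 0.16. Both AMP-activated kinase genes of the list rose, snf1 by 1.17 ± 0.09 and snf4 by 1.3 ± 0.09. The TORC1 subunit kog1 stood at 64.6, 64 and 65.7 CPM and fell to 20.8, 23.1 and 16.5 CPM, a fall by 1.68 ± 0.17. Of the genes of the Gcn2 pathway, which senses uncharged tRNA, gcn1 fell by 1.75 ± 0.12 and gcn2 rose by 0.83 ± 0.08.

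Self-digestion genes rose as a group and kept exceptions. Of 34 autophagy and vacuolar protease genes, 26 rose and 4 fell (median 1.06). The autophagosome protein atg8 went from 42.6, 41.3 and 39.1 to 296, 242 and 191 CPM, but PHBOTO_005562, with the same annotation, went from 262, 237 and 219.6 to 142, 147 and 174 CPM and fell by 0.63 ± 0.09. The aspartic protease pep4 rose by 1.59 ± 0.09 and pep4_3 by 1.35 ± 0.11, and the copy pep4_2 fell by 1.51 ± 0.11, while the kinase-complex subunit PHBOTO_006364 (Atg13) fell by 1.21 ± 0.13. The vacuolar proton pump, which acidifies the compartment, rose in 11 of 14 genes by small steps (median 0.49). Its subunit vma7 went from 229.7, 246 and 244 to 561, 574 and 546 CPM and its catalytic subunit vma1 rose by 0.48 ± 0.08.

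Ubiquitin genes rose more often than they fell, and most proteasome genes fell. Of 41 ubiquitin and conjugation genes 23 rose and 11 fell (median 0.32). Polyubiquitin, ubi4, went from 242, 295 and 233 to 1737, 1835 and 1558 CPM, a rise of 2.73 ± 0.11. The conjugating enzyme ubc8, which in baker's yeast marks gluconeogenic enzymes for destruction, rose by 3.46 ± 0.10. Of the proteasome, 11 of 13 genes of the 20S core fell and none rose (median -0.62), and 16 of 21 genes of the 19S regulatory particle fell while 4 rose (median -0.78). The core subunit pre5 fell by 1.47 ± 0.09, and the base ATPase rpt6 was one of the 4 that rose (by 0.83 ± 0.09).

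**Figure D3:**
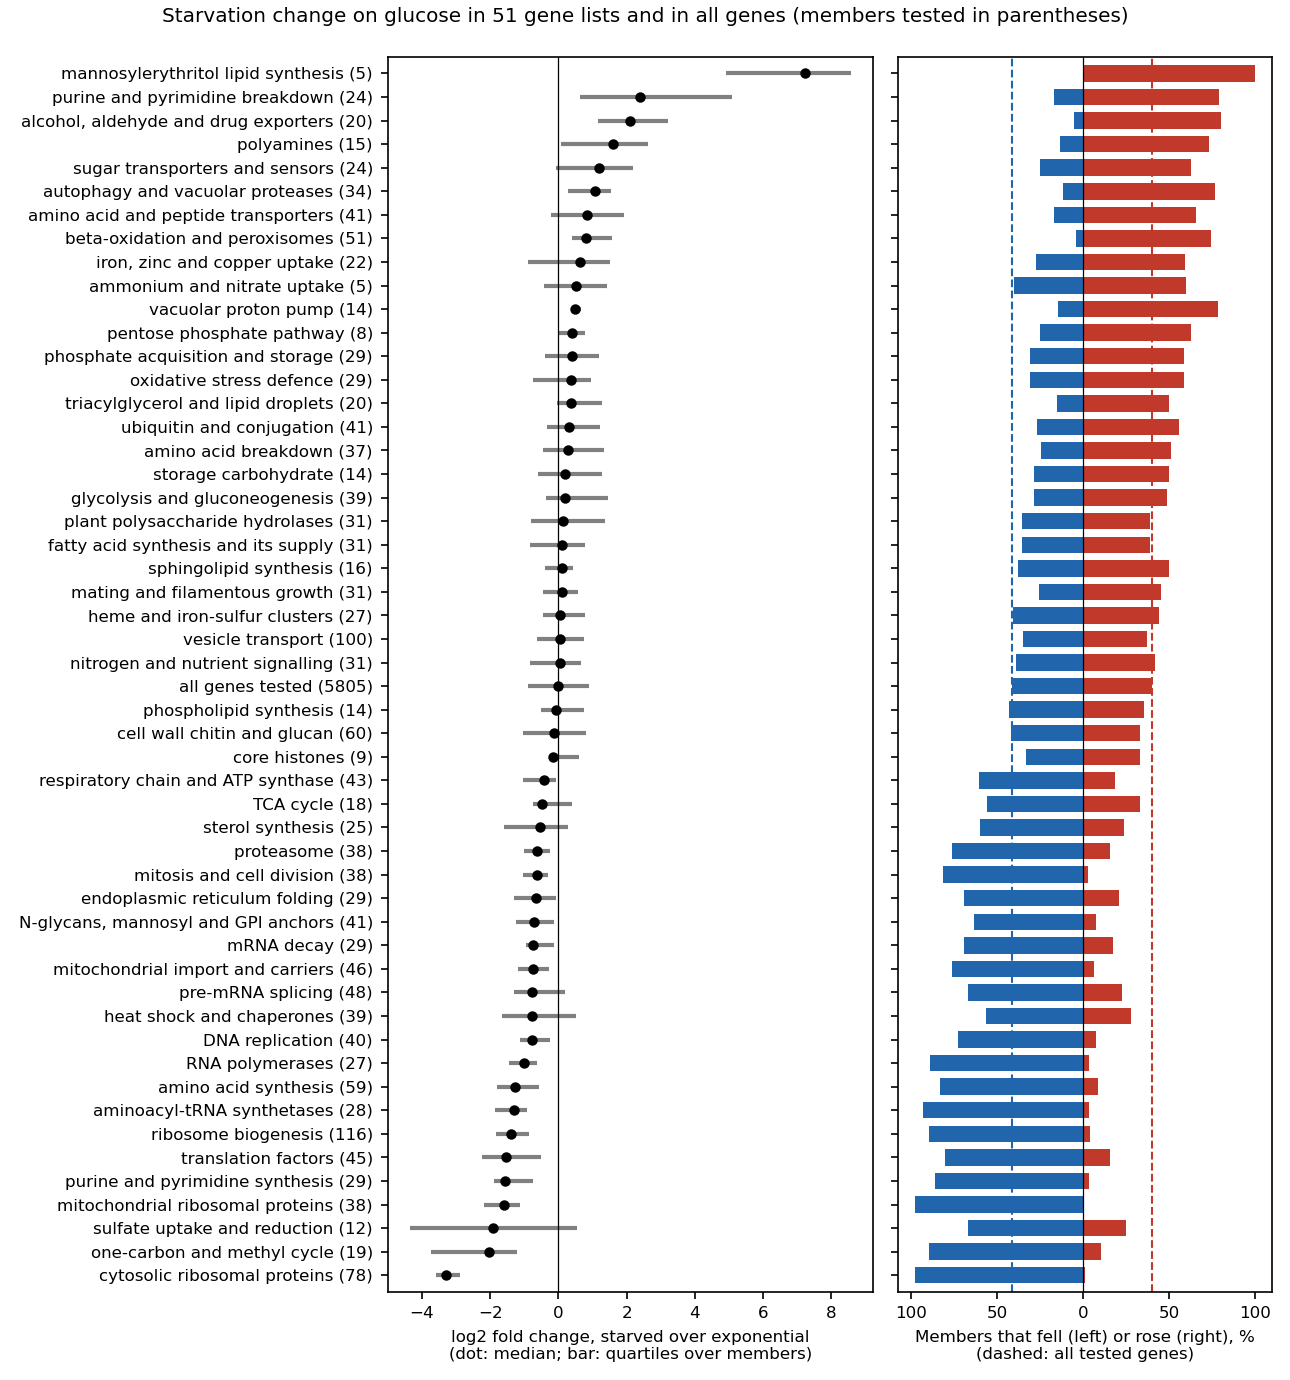
Left, median (dot) and quartiles (bar) of the log2 fold change, starved over exponential, over the tested members of 51 gene lists and of all tested genes; right, the percentage of members that fell (blue, left) and rose (red, right), with dashed lines at 41.1% and 40.1% for all tested genes. Medians run from -3.30 for cytosolic ribosomal proteins to 7.24 for mannosylerythritol lipid synthesis, with one-carbon and sulfate genes (-2.03 and -1.93) next above the former.

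Genes for protein synthesis fell, from ribosomal proteins to the enzymes that charge tRNA. Cytosolic ribosomal proteins fell in 76 of 78 genes with a narrow spread (median -3.30, quartiles -3.60 and -2.89). The large-subunit protein rpl5 went from 3617, 3768 and 3857 to 217, 220.4 and 284 CPM and fell by 3.96 ± 0.16, and the small-subunit protein rps14a fell by 4.41 ± 0.21. Of the ubiquitin fusions in the list, rps31 fell by 1.68 ± 0.10, and rpl40a rose by 1.01 ± 0.08, the one riser of the list. Mitochondrial ribosomal proteins fell in 37 of 38 genes by less (median -1.58), with mnp1 at 372, 363 and 371 CPM and then 44.2, 40.8 and 53.6 CPM. Ribosome biogenesis fell in 104 of 116 genes (median -1.39), and the helicase copy has1_2 fell by 3.46 ± 0.09. Of its 5 risers, nog2_2 was the most abundant and went from 756, 823 and 625 to 1802, 1821 and 1996 CPM.

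Charging and initiation followed. Aminoacyl-tRNA synthetases fell in 26 of 28 genes (median -1.29), with the tryptophan enzyme wrs1 at 197, 189 and 197 CPM and then 44.6, 38.3 and 30.1 CPM. The aspartate enzyme copy dps1_2 was the one riser and went from 83.9, 97.9 and 88.4 to 695, 1068 and 1116 CPM. Translation factors fell in 36 of 45 genes and rose in 7 (median -1.53). The elongation factor tef1, the most abundant locus of exponential growth, went from 18396, 17834 and 18603 to 3776, 3947 and 3936 CPM and fell by 2.23 ± 0.09. Poly(A)-binding protein copies split, as pab1 fell by 2.03 ± 0.11, pab1_2 by 2.97 ± 0.09, while pab1_3 rose by 0.86 ± 0.10, pab1_4 by 1.05 ± 0.10 and pab1_5 by 1.52 ± 0.10.

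Genes for the RNA polymerases fell, with the lowest median in polymerase I. All 5 genes specific to polymerase I, which transcribes ribosomal RNA, fell (median -2.21), against all 4 of polymerase II (median -0.97) and all 7 of polymerase III (median -1.27). These splits by complex were made after values were seen and are descriptions. The largest polymerase I subunit, rpa190, went from 675, 617 and 548 to 109, 129 and 158 CPM and fell by 2.22 ± 0.14. The largest polymerase II subunit, rpo21, fell by 1.02 ± 0.09. The polymerase III initiation factor brf1 rose by 0.35 ± 0.08, and maf1, the known repressor of polymerase III in baker's yeast, fell by 0.49 ± 0.11.

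Chaperones split by kind, 11 of 39 rising and 22 falling (median -0.77). All 8 genes of the chaperonin TRiC, which folds actin and tubulin, fell (median -2.0), and 4 of 5 prefoldin genes, which hand clients to it, fell (median -0.82). The ribosome-bound chaperone ssb2 went from 3177, 2973 and 2906 to 269, 275 and 295 CPM, a fall by 3.43 ± 0.10, and its partner ssz1 fell by 2.58 ± 0.14. Of 11 genes of Hsp70, Hsp90 and Hsp104 with their cofactors 7 rose and 1 fell (median 0.65). The membrane heat shock protein hsp30 went from 13.3, 13.5 and 11.4 to 598, 637 and 539.7 CPM and rose by 5.53 ± 0.12, and the small protein hsp12 rose by 4.69 ± 0.16. The disaggregase hsp104 stood at 73.5, 97.3 and 54.4 CPM and then at 147, 271 and 744 CPM. Its rise of 2.37 ± 0.47 had a wide replicate spread, with starved C at several times starved A, and the groups did not overlap. Without starved C the change was 1.47. The Hsp70 gene ssa4 had the same order of starved replicates, at 1218, 1732 and 3826 CPM after 861, 1064 and 827 CPM.

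Amino acid synthesis fell in 49 of 59 genes and rose in 5 (median -1.28), family by family. Branched-chain enzymes fell in 9 of 10 genes (median -1.64), the aspartate family in 5 of 5 (median -1.65), lysine in 5 of 6 (median -1.72), histidine in 7 of 7 (median -1.19) and aromatic enzymes in 11 of 13 (median -1.0). Arginine fell in 5 of 9 and rose in 2 (median -0.85). The branched-chain reductoisomerase ilv5 went from 1520, 1393 and 1484 to 128, 110.4 and 134 CPM and fell by 3.56 ± 0.10, and the DAHP synthases that open the aromatic pathway, aro3 and aro4, fell by 2.84 ± 0.08 and 2.84 ± 0.15. Glutamine synthetase gln1, which fixes ammonium, went from 2514, 2566 and 2541 to 4565, 4859 and 4889 CPM and was among the 5 that rose. Enzymes that break amino acids down rose in 19 of 37 genes and fell in 9 (median 0.29), with the arginase copy car1_2 at 9.18, 9.23 and 9.16 CPM and then 114, 103 and 115 CPM and the amidase amd2 up by 3.24 ± 0.13.

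Nucleotide synthesis fell while nucleotide breakdown rose. Purine and pyrimidine synthesis fell in 25 of 29 genes and rose in 1 (median -1.56). The nucleoside diphosphate kinase ynk1 went from 797, 778 and 816 to 137, 152 and 144 CPM and the adenylosuccinate synthetase ade12 from 1168, 1173 and 1204 to 388, 395 and 422 CPM. The pyrimidine gene ura3 fell by 2.27 ± 0.10.

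Sulfate assimilation and the methyl cycle fell, with lower medians than amino acid synthesis. Of 12 sulfate genes 8 fell and 3 rose (median -1.93), and of 19 one-carbon and methyl cycle genes 17 fell and 2 rose (median -2.03). The sulfate permease sul1 went from 1351, 1362 and 1506 to 20.5, 17.9 and 17.6 CPM and fell by 6.24 ± 0.16. Of the next steps, the sulfate adenylyltransferase met3, which activates sulfate, fell by 5.59 ± 0.24 and the reductase met16 fell by 5.22 ± 0.11. Methionine synthase met6 stood at 4095, 3841 and 3553 CPM and then 123, 122 and 153 CPM, a fall by 4.85 ± 0.12, and the methylenetetrahydrofolate reductase met13, which supplies its methyl group, fell by 5.29 ± 0.20. The sulfhydrylase met17 went from 2049, 2126 and 2500 to 10.2, 3.26 and 7.43 CPM.

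Members that moved against these lists and other sulfur-related loci are given next. The siroheme gene met8, needed for sulfite reductase, rose by 2.55 ± 0.08, and the cystathionine synthase copy cys4_2 went from 50.1, 45.6 and 35.9 to 474, 464 and 545 CPM. The arylsulfatase PHBOTO_006040, of a family that frees sulfate from esters, fell by 5.9 ± 0.23. A pair of TauD dioxygenases, a family named for the release of sulfite from taurine, moved in opposite directions. PHBOTO_005008 went from 284, 304 and 434 to 0.575, 1.87 and 1.45 CPM and fell by 8.02 ± 0.28. PHBOTO_005702 went from 19.2, 26.4 and 18.1 to 8782, 13286 and 13964 CPM, a rise of 9.14 ± 0.29 that made it one of the 10 most abundant loci of starvation.

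Phosphate genes moved in both directions, with large changes in each. The acid phosphatase copy pho3_2 stood at 7.92, 8.55 and 6.62 CPM in exponential growth and at 3748, 5601 and 7478 CPM in starvation, a rise of 9.5 ± 0.30. The high-affinity phosphate transporter pho84 went the other way, from 418, 470.1 and 394 to 11.4, 12.9 and 16.2 CPM, and fell by 4.98 ± 0.20. Its copies pho84_2 and pho84_3 rose by 3.81 ± 0.17 and 2.43 ± 0.28 from low levels, and pho84_6, at 495, 501 and 484 and then 629, 648 and 668 CPM, rose by 0.39 ± 0.09, while pho84_4 and pho84_5 fell by 0.31 ± 0.12 and 0.45 ± 0.14. The call for pho84_4 was lost without exponential A or B or starved A or B, with adjusted p = 0.0895, 0.0837, 0.129 and 0.113 in edgeR's quasi-likelihood test. It was also lost with the 6 glucose libraries alone (adjusted p = 0.0551 in the same test). The whole list had 17 risers and 9 fallers among 29 genes (median 0.39).

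Of 22 genes for uptake of iron, zinc and copper, 13 rose and 6 fell (median 0.63), and iron genes went both ways. The zinc transporter zrt1 went from 267, 256 and 215 to 3532, 4472 and 6295 CPM and rose by 4.27 ± 0.20. The iron permease fth1 went from 383, 369 and 319 to 32.2, 45.2 and 33.9 CPM and fell by 3.27 ± 0.15, and the multicopper oxidase fet5 that works with such permeases fell by 3.35 ± 0.11. The ferric reductase fre2 fell by 6.36 ± 0.41 to 0.831, 0 and 0.252 CPM, whereas the iron oxidase copy fet5_3 rose by 4.04 ± 0.17 from a low level and the reductase fre3 by 3.18 ± 0.28. Iron-sulfur and heme genes showed no common direction, with 12 up and 11 down of 27 (median 0.06). Within them the scaffold isu1 rose by 1.2 ± 0.07 and the heme enzyme hem2 fell by 1.0 ± 0.10.

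**Figure D4:**
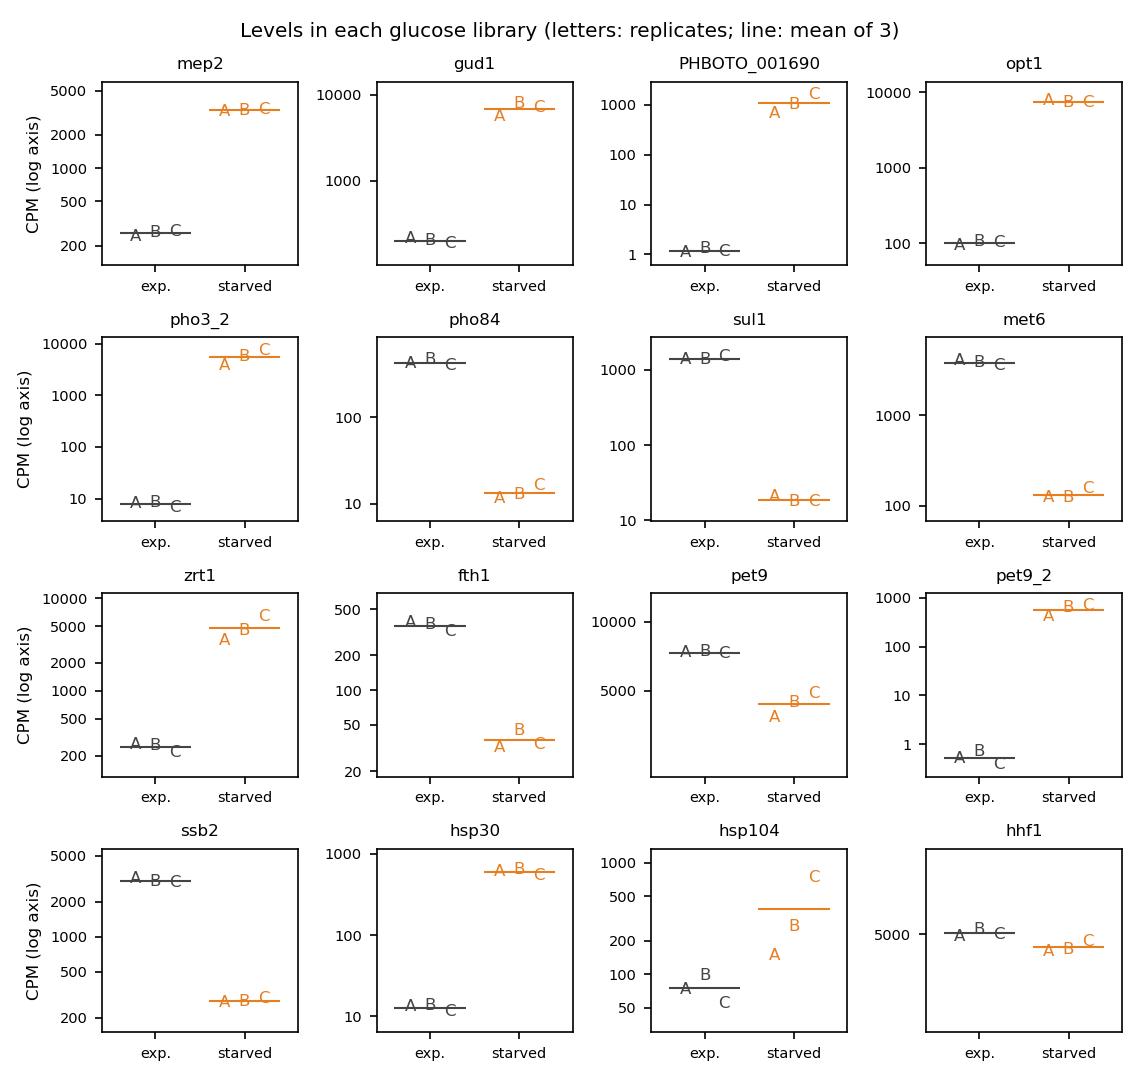
CPM in each glucose library (y axis, log scale, its range set per gene) for 16 genes; letters are replicates A, B and C and the line is the mean of 3. The groups lie close for the histone H4 gene hhf1, and in hsp104 starved replicates A and C are far apart (147 and 744 CPM).

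Genes of glycolysis, gluconeogenesis and the reactions of pyruvate had no common direction. Of 39 genes 19 rose and 11 fell (median 0.19). The pyruvate dehydrogenase complex, which links glycolysis to the TCA cycle, was uneven: lat1 went from 1104, 993 and 992 to 294, 322 and 292 CPM, pdx1 fell by 1.75 ± 0.10 and pdb1 by 1.32 ± 0.09, but the weaker copies pdb1_2 and pda1_2 rose by 1.63 ± 0.08 and 0.76 ± 0.20. The subunit pda1 stood at 2485, 2473 and 2435 and then 2218, 2256 and 2318 CPM (log2 change -0.12 ± 0.08, adjusted p = 0.153 in edgeR's quasi-likelihood test), and lpd1 had a change of -0.22 ± 0.13 (adjusted p = 0.12). Neither was called. The pyruvate decarboxylase pdc1 rose by 2.28 ± 0.13, the alcohol dehydrogenase adh2 went from 9.18, 11.9 and 8.28 to 343, 315 and 322 CPM, and the aldehyde dehydrogenase copy ald4_3 rose by 4.32 ± 0.10. The gluconeogenic fructose-1,6-bisphosphatase fbp1 rose by 2.78 ± 0.17 and fructose-2,6-bisphosphatase fbp26 by 3.04 ± 0.15. Around the pathway, the high-glucose sensor rgt2 went from 1774, 1852 and 1695 to 368, 373 and 489.7 CPM and fell by 2.11 ± 0.13.

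Sugar transporters rose in 15 of 24 genes and fell in 6 (median 1.20). The permease mal31_3 went from 39.2, 40.7 and 34 to 327, 346 and 328 CPM, while mal31 went from 43.1, 41 and 34.2 to 0.192, 0.665 and 0.567 CPM. The glucose/galactose transporter PHBOTO_004493, outside the list, stood at 69, 78.6 and 61.2 CPM and had no count in any starved library, at least 1140-fold lower with the starved group set at 3 counts. For stl1_2, at 0.566, 1.35 and 0.779 CPM in exponential growth and 0 in starvation, the same floor gives at least 15-fold, while the 6 other tested copies of stl1 rose.

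Pentose phosphate genes showed a riser at high level. The transaldolase nqm1 went from 1258, 1401 and 1235 to 5390, 6462 and 4983 CPM and rose by 2.11 ± 0.11. The dehydrogenase zwf1, which makes NADPH, rose by 0.75 ± 0.08, sol1 by 0.85 ± 0.09 and gnd2 fell by 0.27 ± 0.09. The ribose-phosphate pyrophosphokinase prs1, which leads into nucleotides, fell by 1.74 ± 0.09.

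In the TCA cycle, 10 of 18 genes fell and 6 rose (median -0.48). Both subunits of the NAD-dependent isocitrate dehydrogenase fell: idh1 went from 649.8, 620.1 and 601 to 224, 283 and 268 CPM and idh2 fell by 1.02 ± 0.09. Aconitase aco1 fell by 1.01 ± 0.09 and the NADP enzyme idp1 fell by 1.93 ± 0.10, while the succinate dehydrogenase subunit sdh2 rose by 0.77 ± 0.10 and fumarase fum1 by 0.79 ± 0.14. The low activity of isocitrate dehydrogenase in nitrogen-starved oleaginous yeasts is textbook background, and enzyme activity was not measured here.

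The respiratory chain fell in 26 of 43 genes and rose in 8 (median -0.41), and the complexes differed. All 10 ATP synthase genes fell (median -1.21), complex III fell in 5 of 7 (median -0.32), complex IV in 4 of 6 (median -0.25) and complex I in 6 of 12 with 1 riser (median -0.30). All 3 complex II genes rose (median 0.66). The ATP synthase alpha subunit atp1 went from 2612, 2454 and 2441 to 802, 888 and 920.0 CPM. Of 4 enzymes that bypass proton pumping 3 rose: the alternative oxidase PHBOTO_002482 went from 855, 1047 and 804 to 1681, 2496 and 3243 CPM, nde2 rose by 1.96 ± 0.09 and nde1_2 by 2.09 ± 0.18, while nde1 fell by 0.41 ± 0.16. The call for nde1 was lost without exponential A, starved A or starved C, with adjusted p = 0.11, 0.082 and 0.109 in edgeR's quasi-likelihood test.

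Mitochondrial import and carriers fell in 35 of 46 genes and rose in 3 (median -0.74). The ADP/ATP carrier pet9 went from 7373, 7399 and 7254 to 3817, 4475 and 4895 CPM and fell by 0.74 ± 0.10. Its copy pet9_2 went from 0.499, 0.705 and 0.39 to 406, 615 and 692 CPM. The other risers were also carriers, the dicarboxylate carrier dic1_2 (2.43, 2.56 and 2.68 CPM and then 219.9, 227 and 236 CPM) and the phosphate carrier mir1_2, which rose by 2.89 ± 0.12. Among import genes the small chaperones tim8 and tim13 fell by 2.23 ± 0.14 and 1.92 ± 0.12.

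Lipid genes moved by pathway. Of 51 genes for beta-oxidation and peroxisomes, 38 rose and 2 fell (median 0.82), with the acyl-CoA oxidase pox1 at 138, 159 and 146 CPM and then 706, 611 and 716 CPM and the thiolase pot1_PHBOTO_002537 up by 1.78 ± 0.08. For triacylglycerol and lipid droplets, 10 of 20 genes were up and 3 down (median 0.36). The droplet coat protein PHBOTO_004628 went from 387, 397 and 369 to 1901, 2279 and 2005 CPM and the droplet phospholipase lpl1 from 8.75, 8.38 and 8.04 to 222, 217 and 227 CPM. Fatty acid synthesis showed no common direction, with 12 up and 11 down of 31, nor did sphingolipid synthesis, with 8 up and 6 down of 16. Of the former, fas2 rose most and belongs to a run of loci described below.

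Sterol synthesis had 15 fallers and 6 risers of 25 genes (median -0.53). The synthase erg13 went from 628, 632 and 585 to 122, 100.1 and 101 CPM, the mevalonate decarboxylase mvd1 fell by 3.66 ± 0.30 and erg6 by 2.19 ± 0.09. The riser with the largest change was erg11_3, which had 1 count in exponential growth and belongs to the longest run of loci described below. The regulator ecm22 went from 37, 37.4 and 38.5 to 407, 395 and 360.3 CPM and rose by 3.36 ± 0.09. Among phospholipid genes (5 up, 6 down of 14), the repressor opi1 rose by 1.75 ± 0.12, the CDP-diacylglycerol synthase cds1 fell by 1.67 ± 0.09, and the inositol synthase ino1, which opi1 is known to repress in baker's yeast, rose by 0.24 ± 0.08. All 5 genes of mannosylerythritol lipid synthesis rose (median 7.24), among them the acyltransferases mac1, at 1.13, 0.94 and 1.07 CPM and then 703, 603 and 475 CPM, and mac2, at 4.99, 4.32 and 4.38 CPM and then 128, 155 and 127 CPM.

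Division genes mostly fell, and core histones had no common direction. DNA replication fell in 29 of 40 genes and rose in 3 (median -0.78), and mitosis and cell division fell in 31 of 38 and rose in 1 (median -0.63). The sliding clamp pol30 went from 457, 466 and 461 to 240.3, 236 and 244 CPM, the mitotic cyclin clb3 from 395, 379 and 320.2 to 146, 140.2 and 121 CPM, and the spindle checkpoint kinase mps1 fell by 2.25 ± 0.11. Core histones rose in 3 of 9 genes and fell in 3 (median -0.15). Histone H4 hhf1 stood at 4940, 5188 and 5009 and then 4409, 4478 and 4762 CPM, a log2 change of -0.15 ± 0.08 that was not called (adjusted p = 0.107 in edgeR's quasi-likelihood test). Histone H2B htb2 fell by 0.80 ± 0.09 and the histone H3 gene hht1 rose by 1.15 ± 0.10.

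RNA processing fell more often than it rose. Splicing genes fell in 32 of 48 cases and rose in 11 (median -0.76), and decay genes fell in 20 of 29 and rose in 5 (median -0.73). The Sm-like protein gene lsm2 was an exception at high level, at 1654, 1783 and 1605 CPM and then 6252, 6393 and 6766 CPM. The splicing factor syf1 fell by 1.84 ± 0.08, the exosome subunit ski6 by 1.77 ± 0.13 and the deadenylase ccr4 rose by 0.49 ± 0.07.

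Genes of the early secretory pathway mostly fell, and those of the endosomal route mostly rose. Genes of endoplasmic reticulum folding fell in 20 of 29 cases (median -0.65), and those of N-glycans and GPI anchors in 26 of 41 (median -0.70). The chaperone kar2 went from 650.2, 713 and 658 to 143, 128 and 153 CPM and the translocon subunit sec61 fell by 2.06 ± 0.09, whereas the stress sensor ire1 rose by 1.26 ± 0.08. In vesicle transport, 37 of 100 genes rose and 35 fell (median 0.05), and its complexes are given apart. All 6 COPI genes (median -1.12) and 5 of 6 COPII genes (median -0.69) fell, with sec23 at 59.6, 62.3 and 60.4 CPM and then 2.81, 7.01 and 5.54 CPM. Of 9 ESCRT genes, which sort cargo into the vacuole, 7 rose and 1 fell (median 0.74), and all 4 endosomal and vacuolar Rab GTPases rose (median 1.36), with vps21 at 180.5, 198 and 189 CPM and then 706, 760.4 and 720.1 CPM. Of 8 exocyst genes 3 rose and none fell (median 0.14).

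Cell wall genes were mixed, with 20 up and 25 down of 60 (median -0.12). The chitin deacetylases PHBOTO_006067 and PHBOTO_000719, which turn chitin into chitosan, rose by 3.54 ± 0.09 and 2.99 ± 0.12, the latter from 163, 166 and 161 to 1086, 1439 and 1362 CPM. The transglycosidase utr2 fell by 3.94 ± 0.15 and the chitinase PHBOTO_002496 went from 1739, 1867 and 1815 to 4090, 3994 and 4056 CPM. Secreted hydrolases and other proteins that act on plant walls had 12 up and 11 down of 31 (median 0.13), and the expansin PHBOTO_001269, of a wall-loosening family, went from 215, 182 and 183 to 18.9, 18.4 and 25.1 CPM. Among mating and filament genes (14 up, 8 down of 31), the kinase ste11 and the factor tec1 rose by 1.78 ± 0.13 and 1.58 ± 0.09, and the farnesyltransferase subunit ram1 went from 25.5, 23 and 26.1 to 0.128, 0.967 and 2.14 CPM.

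Oxidative stress genes split between peroxidases. Of 29 genes 17 rose and 9 fell (median 0.38). The mitochondrial peroxiredoxin prx1 went from 1427, 1584 and 1680 to 101, 106 and 75 CPM and fell by 4.06 ± 0.13, while the cytochrome c peroxidase copy ccp1_2 went from 49.6, 53.3 and 54.3 to 662, 658 and 828 CPM and rose by 3.77 ± 0.12. Thioredoxin trx2 rose by 1.8 ± 0.08 and the glutathione synthetase gsh2 fell by 1.85 ± 0.14. Of the storage carbohydrate genes, the trehalose phosphatase tps2 rose by 1.62 ± 0.08, the trehalase nth1 by 1.55 ± 0.10, and the glycogen synthase gsy1 fell by 0.64 ± 0.09.

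Exporters rose in most cases. Of 20 genes for export of drugs, alcohols and aldehydes 16 rose and 1 fell (median 2.11). The list does not hold yhk8_5, annotated as a probable drug/proton antiporter, which fell by 6.04 ± 0.16 while the other tested copies of that name rose. The ABC transporter snq2_4 went from 304, 339 and 289 to 1846, 2633 and 2977 CPM, the multidrug transporter PHBOTO_000460 from 21.9, 22.2 and 20.8 to 575, 662 and 552 CPM, and flr1_3 rose by 6.04 ± 0.15. Of 11 polyamine transporters 10 rose and 1 fell (median 2.31), whereas of 4 polyamine enzymes 1 rose and 1 fell (median -0.07). The transporter tpo5 went from 17.1, 21.1 and 20.4 to 1086, 1020 and 1171 CPM and tpo3_3 rose by 7.24 ± 0.26, while the decarboxylase spe2 fell by 0.45 ± 0.10.

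Large rises lay next to each other in 5 runs of at least 4 neighbouring loci that all rose 8-fold or more, and no run of falls met that rule. The loci are numbered consecutively, and genome coordinates were not used here. The longest run has 14 loci, PHBOTO_006514 to PHBOTO_006527, with a median of 11.11 and a range of 5.46 to 16.95, whose top rests on loci with 1 or 2 counts in exponential growth. Its share of counts was 0.0138 to 0.0152% in exponential growth and 3.71 to 4.74% in starvation. It starts with ape3, annotated as an aminopeptidase, which rose by 5.55 ± 0.21. Its members include the fatty acid synthase subunit fas2 (13.1, 14.8 and 12.9 CPM and then 9535, 9138 and 9992 CPM), the methylsterol monooxygenase copy erg25_2 (98.1, 88 and 87.5 CPM and then 4390, 3996 and 3651 CPM) and the ABC transporter ste6_3 (1.83, 1.91 and 1.07 CPM and then 1723, 1552 and 1622 CPM). The glycosyltransferase PHBOTO_006524 had 2 counts in the exponential group and 4303, 3464 and 3167 CPM in starvation, a ratio of starved to exponential of 154000 with an exact 95% counting interval of 42600 to 1270000. The P450 copy erg11_3 had 1 count and then 2435, 1856 and 1644 CPM, a ratio of 167000 with an interval of 30000 to 6600000.

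A run of 4 loci, PHBOTO_002762 to PHBOTO_002765, went from 0.0204 to 0.0208% up to 0.88 to 1.59% of the counts. It starts with a P450, at 1.1, 0.852 and 0.828 CPM and then 760.2, 1321 and 1756 CPM, and ends with the membrane protein ynr062c, which rose by 10.36 ± 0.30. Starved replicate C was above A in both. The mannosylerythritol lipid run of 4 loci took 0.0857 to 0.117% in starvation. The remaining pair of runs, PHBOTO_005301 to PHBOTO_005305 and PHBOTO_005307 to PHBOTO_005310, is separated by 1 locus. They hold the exporter qdr1, a bHLH-domain protein (PHBOTO_005303, 14.3, 13.1 and 11.5 CPM and then 531, 433 and 361 CPM), a locus annotated as a methylitaconate isomerase (PHBOTO_005302, weak even in starvation at 1.02, 0.906 and 0 CPM and not called by limma voom with group weights, adjusted p = 0.0651) and the ABC transporter ycf1_4, which went from 161, 168 and 159.6 to 1492, 1414 and 1336 CPM.

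Of 275 names held by at least 2 tested loci, 33 (12%) had a copy that rose and a copy that fell by 2-fold or more. Over all tested loci 22.5% rose and 22.1% fell that far, and nothing is read from the count. The cytochrome b5 reductase cbr1 went from 288, 319 and 314 to 116, 106 and 103 CPM and fell by 1.51 ± 0.09, while cbr1_2 went from 18.6, 19.8 and 19.9 to 976, 839.8 and 925 CPM. The carboxylic acid transporter jen1 rose by 2.16 ± 0.10 and jen1_2 fell by 3.81 ± 0.29. The cell wall MAP kinase slt2 stood at 477, 513 and 548 CPM and fell by 1.54 ± 0.17, and slt2_2 stood at 75.4, 69.8 and 73.1 CPM and rose by 2.41 ± 0.09. The antiporter copy yhk8_5 fell by 6.04 ± 0.16, while its 3 other tested copies rose, yhk8_2 by 4.81 ± 0.16. The deposited names rest on similarity, so a shared name does not show a shared function, and these names were chosen after their values were seen.

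Most of the glucose response ran in the same direction on xylose, but often by another amount. On xylose 4717 genes were called (81.3%). Of the 4714 genes called on glucose, 4143 were also called on xylose, 147 of them in the opposite direction. The test of the difference, glucose change minus xylose change in one model, called 2218 genes (38.2%), with 956 positive (16.5%) and 1262 negative (21.7%). At 2-fold or more it called 541 genes (9.32%).

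Runs were chosen for large rises on glucose with no condition on xylose, and that choice favours a positive difference. In the run from PHBOTO_002762, 2 of 4 loci had a called negative difference and 0 a positive one (median 8.58 on glucose and 9.8 on xylose). In each of the runs from PHBOTO_003089, PHBOTO_005301 and PHBOTO_005307, 3 loci had a positive difference and 0 a negative one. Of the 14 loci of the longest run, 12 had a positive difference that was called and none a negative one. For erg11_3 and gre2_2 the difference was not called by edgeR's quasi-likelihood test (adjusted p = 0.118 and 0.0859). Both differences were positive and were called by DESeq2's Wald test (adjusted p = 0.000784 and 0.00274) and by limma voom with group weights (9.96e-06 and 0.000493). The change of fas2 was 9.45 ± 0.13 on glucose and 3.41 ± 0.10 on xylose, a difference of 6.04 ± 0.14 (adjusted p = 8.38e-14 in edgeR's quasi-likelihood test). For erg25_2 the changes were 5.46 ± 0.12 and 0.60 ± 0.10, a difference of 4.86 ± 0.15. The exporter snq2_4 rose by 3.0 ± 0.16 on glucose and 0.84 ± 0.15 on xylose, and mep2 by 3.69 ± 0.09 and 2.56 ± 0.09. Mean levels of mep2 were 257 and then 3320 CPM on glucose and 633 and then 3722 CPM on xylose. Its starved level was thus not higher on glucose, and its exponential level was lower there. The reductase fre3 rose on glucose and fell on xylose (-0.86 ± 0.30), a difference of 4.04 ± 0.41. The urea transporter copy dur3_2, weak on glucose, had a mean of 523 ± 126 CPM (SD, n = 3) in exponential xylose and 0.434 ± 0.325 CPM in starved xylose. Its change was -2.49 ± 0.58 on glucose and -10.10 ± 0.36 on xylose, a difference of 7.6 ± 1.20.

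Other genes differed toward xylose. The maltose permease mal31 fell on glucose and had a change of 0.08 ± 0.24 on xylose, a difference of -6.44 ± 0.41, and yhk8_5 fell by 6.04 ± 0.16 against a change of -0.83 ± 0.29. Heat shock genes rose less on glucose: hsp104 rose by 2.37 ± 0.47 against 7.11 ± 0.58, a difference of -4.75 ± 0.67, and 9 of the 11 genes of Hsp70, Hsp90 and Hsp104 with cofactors had a negative difference. The alternative oxidase PHBOTO_002482 rose by 1.45 ± 0.18 against 5.51 ± 0.21. In core histones 7 of 9 genes had a negative difference, with hhf1 at 1.42 ± 0.08 on xylose. Cytosolic ribosomal proteins had a negative difference in 71 of 78 genes and a positive one in 0, with medians of -3.30 on glucose and -2.53 on xylose. Differences in ribosome biogenesis (64 of 116 negative, 1 positive) and mitochondrial ribosomal proteins (23 of 38 negative, 0 positive) went the same way, against 21.7% negative over all tested genes. Complex III (5 of 7 genes), complex II (3 of 3) and ATP synthase (6 of 10) also had lower changes on glucose than on xylose, as had all 5 polymerase I genes. The differences of the histone gene hht1 and the polymerase I gene rpa190 lost the call under several alternatives. Among these were the replicate letter as a block (adjusted p = 0.0598 and 0.0519 in edgeR's quasi-likelihood test) and leaving out starved xylose A (0.132 and 0.173). Starved replicate C of glucose lay nearest to starved xylose in its levels, and without it the count of genes with a difference was 2552. Leaving out that library also changes the spread among replicates, and the cause of the higher count was not tested.

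Opposite changes of 2-fold or more on each sugar were called in 16 loci. Among them, chosen after their values were seen, slt2 fell by 1.54 ± 0.17 on glucose and rose by 2.47 ± 0.18 on xylose. The D-lactate dehydrogenase dld1 had changes of 1.1 ± 0.12 and -4.02 ± 0.13, and the pheromone receptor PHBOTO_002319 of -1.82 ± 0.45 and 1.61 ± 0.40. Neighbouring loci PHBOTO_006510, annotated as a transaldolase, and PHBOTO_006511, annotated as a mannose-6-phosphate isomerase, changed by 1.74 ± 0.17 and 2.39 ± 0.44 on glucose and by -3.58 ± 0.17 and -3.89 ± 0.27 on xylose. On glucose both were weak, with PHBOTO_006511 at 0.865, 0.97 and 1.32 CPM and then 1.41, 8.28 and 6.36 CPM.

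**Figure D5:**
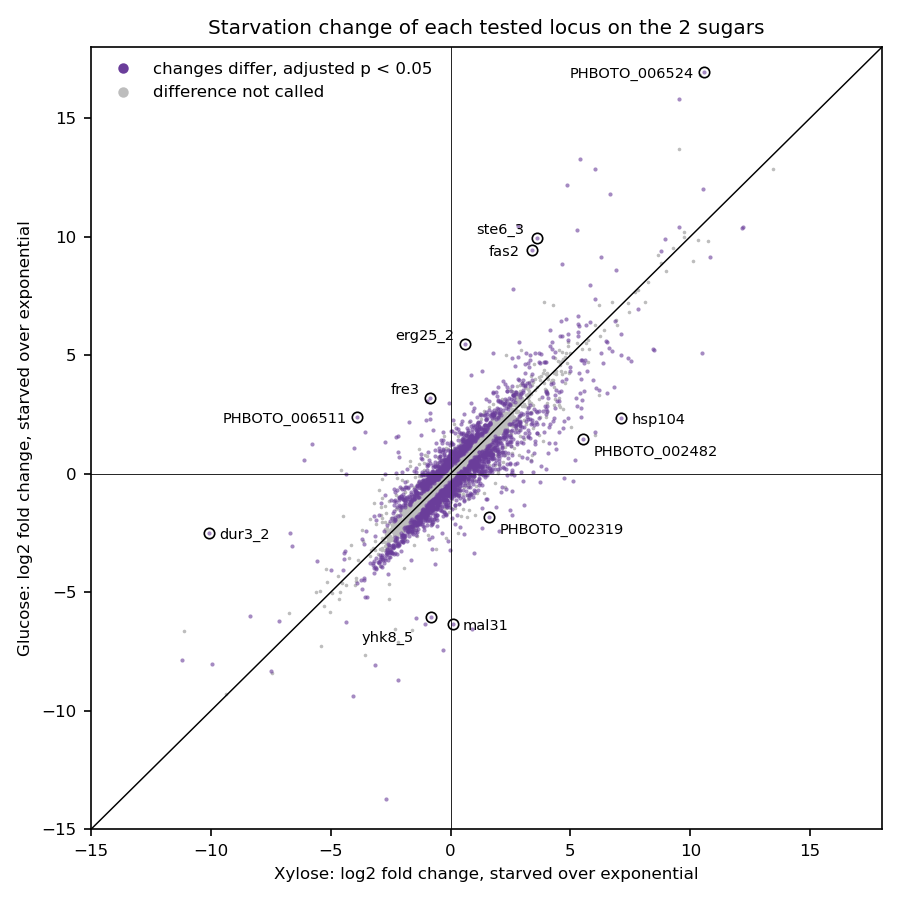
Log2 fold change with starvation on xylose (x axis) and on glucose (y axis) for 5805 tested loci; purple marks the 2218 loci whose changes differ between the sugars and the line marks equal changes. Most loci lie along the line, with fas2, ste6_3 and PHBOTO_006524 above it and hsp104 and PHBOTO_002482 below it; the place of PHBOTO_006524 rests on 2 counts in exponential glucose.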

How the data were processed

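RNA of 12 samples was made into stranded poly(A) libraries, per the labels' protocols. Whether both time points of a letter came from the same culture is not said in the labels. The authors processed reads with bcl2fastq 2.20.0.422, CASAVA, Trim Galore 0.6.1, cutadapt 2.3, HISAT2 2.2.1 and DESeq2, per the submitters' processing notes. For the read counter, strand handling, build and annotation, nothing is given in the sources used here. The deposited table holds raw read counts per locus, the authors' normalized counts (a signal, per the file headers, whose ratio to the raw count is constant within a library), their log2 fold changes and their adjusted p-values.

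All tests here used the deposited raw counts. Loci were kept by edgeR's filterByExpr (at least 10 counts at median depth in 3 libraries), which left 5805 of 6689 loci, and 615 loci were at 0 in all libraries. One quasi-likelihood model (edgeR 4.0.16, R 4.3.3, TMM scaling, 8 residual degrees of freedom) held 1 coefficient per group over 12 libraries. Its contrasts were starved minus exponential on glucose, the same on xylose, and their difference. SE values are approximate, from the log2 change and F. Python 3.11.15 and pandas 2.3.3 were used for summaries, and the fit was tested on simulated data.

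The labels call replicates biological and do not say what a letter shares. Members of the 51 lists were found by gene name and product, with 58 misfiled loci left out. The comparison, the lists and their splits by complex were chosen with earlier results of these data known. Named genes were the 12 largest annotated rises and falls, up to 3 risers and 3 fallers and the most abundant member of each list, the 10 most abundant loci of each glucose group, the 6 largest differences between sugars in each direction, and loci in runs of at least 4 neighbours past 8-fold. Named outside this rule, after their values were seen, were PHBOTO_003220, PHBOTO_006510, aah1, cbr1, cbr1_2, dal2, dal4, dal5, dal5_2, dip5, dip5_4, dip5_5, dld1, dur3, dur3_3, fbp1, fbp26, fur4, gap1, gcn2, jen1, jen1_2, maf1, nde1, opt1_5, opt1_6, pab1, pab1_3, pda1_2, pdb1_2, pdc1, pep4_3, pho84_3, pho84_4, pho84_5, pho84_6, pnp1, ptr2, rpo21, slt2, slt2_2, snf1, ssa4, ure2_2 and yhk8_2.

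In the authors' deposited table, adjusted p was under 0.05 on glucose for 4759 of the 5805 loci, of which 4696 were also called here, with the same direction in all 4696. The median absolute difference between log2 changes was 0.0195. DESeq2 1.42.0, DESeq2 size factors, 2 other filters, a fit of the 6 glucose libraries alone, limma 3.58.1 voom with group weights, the replicate letter as a block and leaving out each library in turn were tried as alternatives. Intervals for single ratios are exact, at 95%, and cover counting error only.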

Additional observations from a re-analysis of the deposited data

Results flagged for a closer look

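For 25 of the genes named, the change with starvation differed between glucose and xylose by 2 or more on the log2 scale, and the difference itself was called by edgeR's quasi-likelihood test of the interaction. Values in parentheses are the glucose change minus the xylose change in log2, and no explanation is weighed for them. Genes at 0 to 3 counts in a glucose group are left out.

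The change was higher on glucose for PHBOTO_006527 (7.63), dur3_2 (7.6), ste6_3 (6.35), PHBOTO_006511 (6.28), fas2 (6.04), PHBOTO_006510 (5.32), dld1 (5.12), erg25_2 (4.86), fre3 (4.04), PHBOTO_005307 (3.34), mac1 (2.87), ape3 (2.7), snq2_4 (2.16), mac2 (2.1) and dur3 (2.06). These include members of the 14-locus run, acyltransferases of mannosylerythritol lipid synthesis and a D-lactate dehydrogenase.

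The change was lower on glucose for mal31 (-6.44), fre2 (-5.29), yhk8_5 (-5.21), hsp104 (-4.75), PHBOTO_002482 (-4.06), slt2 (-4.01), PHBOTO_002319 (-3.43), jen1_2 (-3.17), ssa4 (-2.79) and dip5_2 (-2.01). Heat shock genes, the alternative oxidase, a ferric reductase and a maltose permease are among them.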

How the results depend on the processing

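The count of genes changed on glucose lay between 4545 and 4786 under the 7 alternatives that kept all libraries or all glucose libraries and between 4531 and 4759 when each library was left out in turn. Changes of 2-fold or more numbered 2497 to 2629 and 2564 to 2638 in the same 2 sets, and changes on xylose 4632 to 4821 and 4544 to 4845. The count of differences between sugars ranged from 2162 to 2360 and, leaving out libraries, from 1820 (without exponential xylose C) to 2552 (without starved glucose C). Falls of 8-fold or more were 145 with all libraries and 188 without starved glucose C. None of these counts moved past 1.5 times, and no called change of a named gene changed direction.

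Of the named genes' values on glucose under the alternatives, 14 of 4481 lost the call and 1 gained one. By name, the genes that lost it were PHBOTO_005302, dal5_2, dur3_2, nde1 and pho84_4, and the gene that gained it was lpd1. Of the differences between sugars, 180 of 4246 lost and 63 gained the call, and the cause was not tested. Over the lists, 29 counts of risers or fallers under an alternative differed by more than 1.5 times, 2 of them from 5 or more genes. The count of ribosome biogenesis genes that rose went from 5 to 2 without exponential glucose B, and that of plant polysaccharide hydrolases that fell from 11 to 7 with the 6 glucose libraries alone. Group weights in voom were 2.03 for exponential and 0.427 for starved glucose. No scaling moved the median over all genes further than -0.05.

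With the replicate letter as a block, 4691 genes were called on glucose and 2162 differed between sugars. The letters are not treated as pairs, as the labels do not say that a letter marks a shared batch. Deviations of same-letter exponential and starved glucose libraries correlated at -0.0386, -0.0643 and -0.106. Those of starved glucose and starved xylose libraries correlated at -0.0332, 0.0625 and 0.171, and those of exponential and starved xylose at 0.126, 0.0811 and -0.0198. Taken from the mean of only 3 libraries, these deviations cannot decide whether a letter shares a culture or batch. Weak genes of starved glucose were uneven, with a median coefficient of variation of 47.5% at 10 to 100 counts. In starved xylose it was 25.4% over the same range of counts, and the cause was not tested.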
